A study of Drosophila melanogaster with 24 samples.

Results

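On microarrays of the fruit fly Drosophila melanogaster, 128 of 22575 probes were brighter in male than in female pupae and brighter in abdomens than in heads of adult males, while their abdomen signal exceeded their male pupal signal by less than 1 log2 unit. These 128 probes were chosen by their own values. From group means of log2 normalized signal, a probe was a member if male minus female pupae was at least 1, male abdomen minus male head was at least 1, and male abdomen minus male pupae was under 1. Of 209 probes that met the first limit, 185 also met the second, and 128 of these met all 3. The remaining 57 probes were brighter in abdomens than in male pupae by at least 1 unit. They are called probes with a further rise below, a name that implies no change with age. Another 24 probes met the limit between the sexes but not that between abdomen and head. No spot is named in the tables used here, so each member is given by its number in spot order and by its row and column on the array, and several members may belong to 1 gene.

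All flies were of the isogenic line WI89, and no treatment or transgene is given for any group. The 24 samples formed 6 groups of 4 samples. Female pupae and male pupae were taken as white prepupae at 0 to 1 h after the pupal case formed and kept for 12 h at 25 °C. Mixed-sex pupal samples were an equal mixture of RNA from the male and the female pupae. All mRNA was labelled without amplification. Embryos of both sexes came from 24 h of egg laying and so covered many embryonic ages, and heads and abdomens were cut from males aged 24 to 48 h. By its title the series addresses alternative splicing across sex, stage and tissue. The level of a transcript and its splicing could not be told apart at these probes. The labels do not say whether replicates came from separate animals, so the p-values below cover no more than sample-to-sample spread, part of which may be technical.

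As background, the abdomen of an adult male fly holds the testes, the accessory glands and the ejaculatory duct, along with gut, fat body and muscle, and the head holds none of the reproductive organs. The testis of the fly is known for a large set of transcripts that few other tissues make, many of them switched on in the spermatocytes, the germ cells that prepare for meiosis. Larval and pupal males already carry testes with developing germ cells, whereas the ovary of a young pupa has not yet begun to make yolk-filled eggs. Whether any member belongs to such a gene could not be checked, because no marker gene can be found among unnamed probes. Fewer cells of a type and less RNA per cell cannot be told apart in these bulk samples.

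The samples lay on 12 arrays, each with 1 sample in the dye Cy3 and 1 in Cy5, and 4 arrays were brighter than the other 8. The median signal over local background of all probes ranged from 5.19 scanner units in head replicate 3 to 144 in embryo replicate 3. Each group held 2 samples of each dye. At the member probes, all 128 exceeded the detection level, 2 SD of the local backgrounds, in every sample of male pupae, mixed-sex pupae and abdomens. In those samples 89.1% to 100% of all probes exceeded it. In head replicates 1 and 3 and embryo replicate 2, all of them dim Cy5 samples, 97, 88 and 101 members exceeded it. Of all probes, 74%, 80.1% and 86.3% did so in these samples, so the counts are not read as a trait of the members. Precision is limited by the small number of arrays.

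The members were near the middle of all probes in 3 groups and among the brightest in the other 3. In replicate order the median log2 signal over the members was 6.02, 6.26, 6.04 and 6.15 in female pupae. It was 7.74, 7.43, 7.53 and 7.37 in male pupae. It was 7.002, 7.03, 7.36 and 7.26 in mixed-sex pupae. The 4 male samples lay above the 4 mixed-sex samples, and these above the 4 female samples. The same median was 6.04, 6.01, 6.14 and 6.11 in embryos. It was 6.21, 6.31, 6.05 and 6.03 in heads, and 8.09, 8.09, 8.25 and 8.24 in abdomens. The median of all 22575 probes was 6.21 in each sample after normalization, so the members sat close to it in female pupae, embryos and heads.

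**Figure D1:**
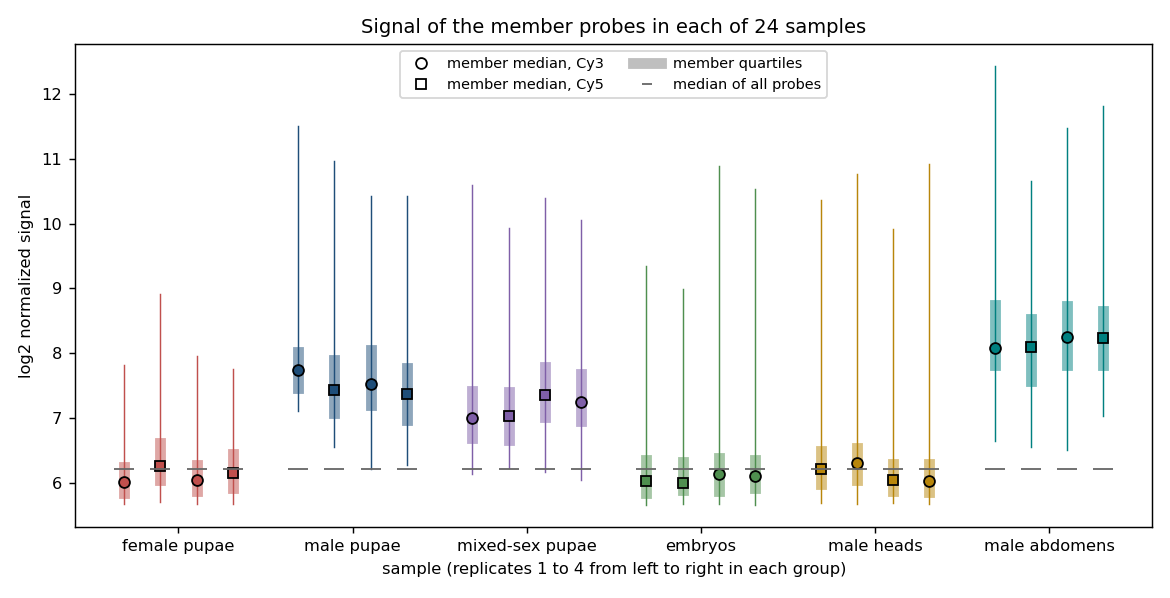
Log2 normalized signal of the 128 member probes in each of the 24 samples (x axis, replicates 1 to 4 in each group; thin line, lowest to highest member; thick bar, quartiles; circle or square, member median in Cy3 or Cy5; grey dash, median of all probes). The member medians sit between 8.09 and 8.25 in abdomens and between 7.37 and 7.74 in male pupae, and from 6.01 to 6.31 in female pupae, embryos and heads.

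Expressed as the mean of these sample medians, the members stood at 6.12 ± 0.11 in female pupae, 7.52 ± 0.16 in male pupae, 7.16 ± 0.17 in mixed-sex pupae, 6.07 ± 0.06 in embryos, 6.15 ± 0.14 in heads and 8.17 ± 0.09 in abdomens (log2, SD, n = 4 each). Female pupae, embryos and heads, the neighbours at the low end of this order, did not differ beyond their spread. Ranked among all probes by group mean, the median member stood at percentile 40.3 in female pupae, 38.5 in embryos and 44.4 in heads. The median member reached percentile 94.1 in male pupae, 90.1 in mixed-sex pupae and 97.3 in abdomens. The percentiles of female pupae, male pupae, heads and abdomens follow from the rule, and mixed-sex samples were made from the pupae it compared. The level in embryos is the one group level that the rule did not touch.

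The log2 values include an offset of 50 units, which makes low signals look closer together than they are. With the offset removed, the median net signal of the members was 19.6 ± 5.42 units in female pupae and 134 ± 21.1 in male pupae (SD, n = 4 each). It was 94.2 ± 17.6 units in mixed-sex pupae, 17.3 ± 2.75 in embryos, 21.3 ± 6.76 in heads and 238 ± 17.6 in abdomens (SD, n = 4 each). On this linear scale the median member was 7.27-fold brighter in male than in female pupae, with a range of 2.47 to 48.6. The median ratio was 12.5 between abdomens and heads (2.32 to 85.7) and 1.8 between abdomens and male pupae (0.76 to 2.61). Ratios over a low net signal rest on a few scanner units and are given as a description.

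The values that chose the members varied widely among them. Male minus female pupae had a median of 1.26 log2 units, quartiles of 1.12 and 1.56 and a maximum of 2.88. Abdomen minus head had a median of 1.88, quartiles of 1.67 and 2.30 and a maximum of 4.03. The difference between the tissues was larger than that between the sexes at 124 of the 128 probes, with at least 2 units at 49 probes against 17. In the limma fit over all probes, 127 of 128 members passed an adjusted p of 0.05 as higher in male pupae, where 4.42% of all probes did, and 0 as higher in female pupae, where 0.651% did. As higher in abdomens 127 passed, where 11.5% of all probes did, and 0 as higher in heads, where 7.55% did. The 4 samples of each group did not overlap at 125 of 125 complete members between the sexes, against 5.38% of all probes, and at 125 of 127 between the tissues, against 12.2%. Both contrasts chose the members, so none of these counts is read as a result.

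**Figure D2:**
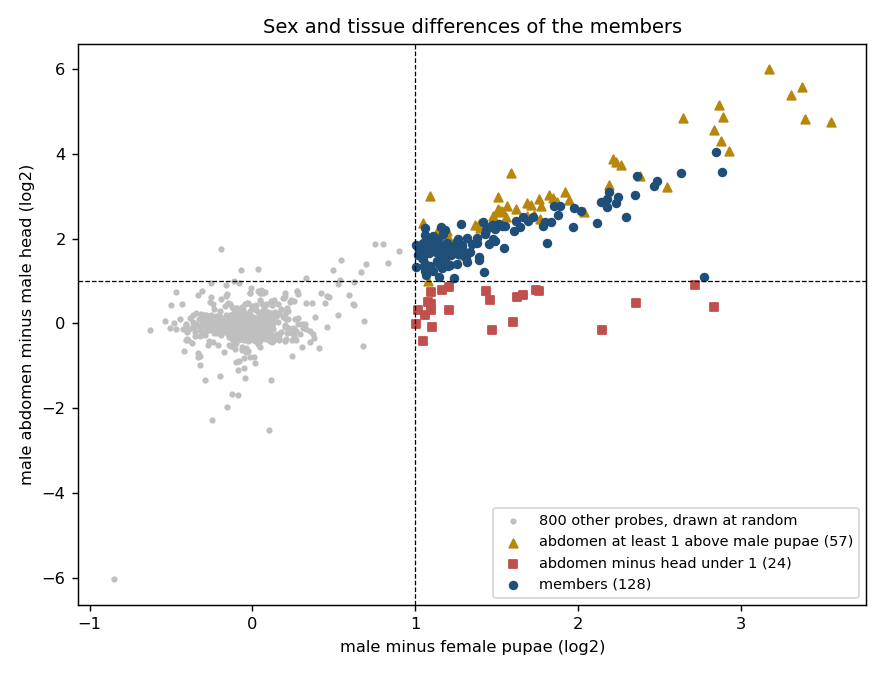
Male minus female pupae (x axis, log2) against male abdomen minus male head (y axis, log2) for the 128 members, the 57 probes with a further rise in abdomens, the 24 probes that met the limit between the sexes but not that between the tissues, and other probes drawn at random. Dashed lines mark the limits of 1. The members begin at the corner of both limits and reach 2.88 and 4.03, and probe 3366 lies apart at 2.77 and 1.10.

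Values close to the limits show how little separates the last members from the first probes left out. At the limit between the sexes, probes 11252, 13747 and 5470 were just inside with 1.00, 1.01 and 1.02, and probes 18959, 5951 and 15135 just outside with 0.996, 0.994 and 0.988. Between abdomen and head, probes 8091, 9165 and 3366 were just inside with 1.07, 1.09 and 1.10, and probes 20362, 2409 and 3862 outside with 0.899, 0.866 and 0.784. Between abdomen and male pupae, probes 15544, 11252 and 8465 were inside with 0.999, 0.992 and 0.989, and probes 14739, 8684 and 5848 outside with 1.00, 1.00 and 1.02.

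Although the rule limited the members' abdomen signal from above, the abdomen mean was higher than the male pupal mean at 127 of the 128 probes. The difference had a median of 0.68 log2 units and ran from -0.02 to 1.00. The pupal labels name no body part, while the adult samples were cut abdomens. Stage and body part therefore cannot be told apart in this contrast. By limma, 102 members passed the threshold as brighter in abdomens, where 10.6% of all probes did, and 0 passed as brighter in male pupae, where 4.81% did. The rule used this contrast too, so the counts describe the members. Scaled to each sample's 75th percentile, 54 members passed as brighter in abdomens. The share of all probes that passed with that scaling was not computed. On the 1 array that held both groups, abdomen replicate 4 was brighter than male pupal replicate 1 at 117 of 128 members, by a median of 0.52, against 50.4% of all probes. The 4 samples of each group did not overlap at 88 of 127 members with complete values, against 11.9% of all probes.

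**Figure D3:**
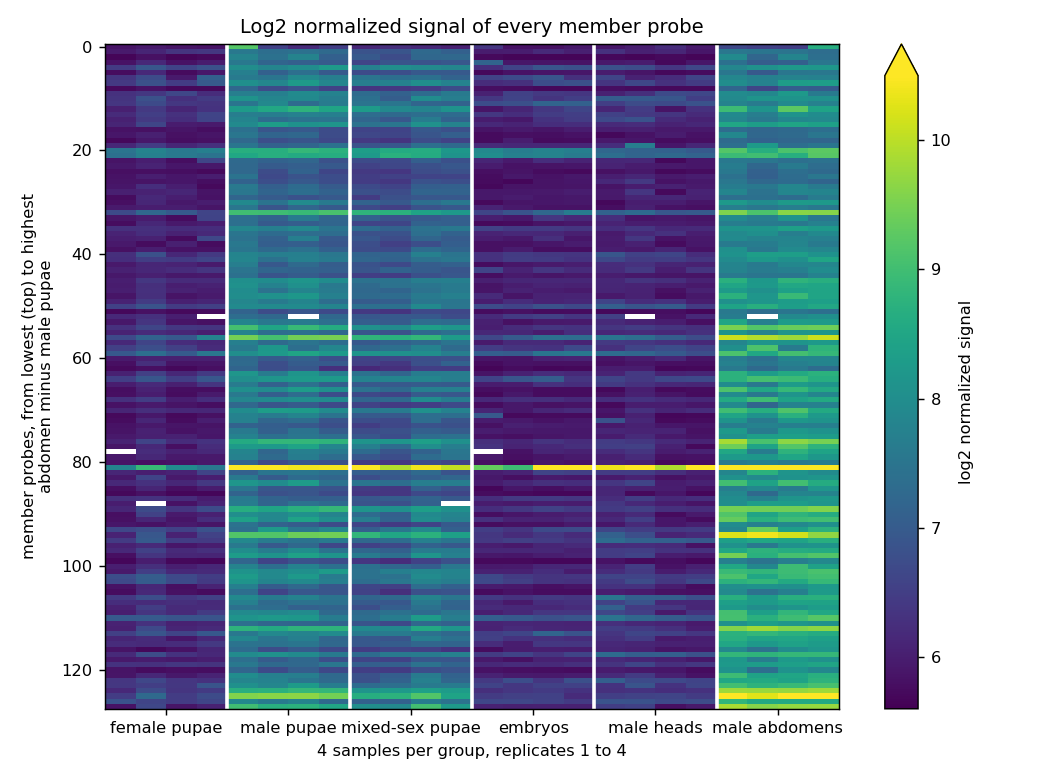
Log2 normalized signal (colour) of every member probe (rows, ordered by abdomen minus male pupae, lowest at the top) in the 24 samples (columns, 4 per group; white cells, dropped spots with a quality mark). The abdomen columns brighten from the top to the bottom rows, from a median of 7.66 for the 36 members with a difference under 0.5 to 8.58 for the 52 members with 0.75 or more; female pupae, embryos and heads stay dark apart from a few rows.

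Grouped by this difference, the 36 members under 0.5 had median levels of 7.33 in male pupae and 7.66 in abdomens. The 40 members from 0.5 to 0.75 had 7.49 and 8.13, and the 52 members from 0.75 to 1 had 7.65 and 8.58. The classes are made from these levels, so their order is a description. In embryos, which the classes did not use, the medians were 6.08, 6.05 and 6.16. The threshold was passed by 13 of the 36, 38 of the 40 and 51 of the 52. At the lower end, probe 12331 (row 58, column 76) had 7.41 ± 0.11 in male pupae and 7.47 ± 0.08 in abdomens (SD, n = 4 each). The difference of 0.06 (SE 0.11) was smaller than its error.

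Among the members with the largest differences, probe 18180 (row 85, column 120) had close replicates in abdomens and heads. Its log2 signal was 8.69, 8.72, 8.85 and 8.85 in male pupae and 6.16, 6.71, 6.36 and 6.44 in female pupae. It was 9.79, 9.76, 9.72 and 9.81 in abdomens and 6.29, 6.32, 6.24 and 6.30 in heads. No female pupal or head sample came near any male pupal or abdomen sample, and abdomens exceeded male pupae by 0.99 (SE 0.11). In embryos the probe had 6.25, 6.38, 6.43 and 6.32, in the range of heads and female pupae.

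Probe 8465 (row 40, column 80) had the largest difference between the tissues. Its abdomen values were 10.70, 10.28, 10.68 and 10.61, against 6.50, 6.57, 6.60 and 6.46 in heads. Its male pupal values were 9.57, 9.63, 9.65 and 9.46, against 6.47, 7.28, 6.47 and 6.72 in female pupae. The groups were far apart, but female replicate 2 stood above the other female samples. With the offset removed, the probe had 1476 units in abdomens and 42.6 in heads, a 34.7-fold ratio.

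Probe 13816 (row 65, column 56) had the largest difference between the sexes. It had 9.17, 9.16, 9.40 and 9.45 in male pupae and 6.08, 6.93, 6.07 and 6.57 in female pupae. Its head values were 7.12, 6.77, 6.09 and 6.19, against 10.24, 10.39, 10.16 and 9.69 in abdomens. Here head replicates 1 and 2 lay above the other 2 heads, and female replicates 2 and 4 above the other 2 females. Probe 15544 (row 73, column 64) had the same split, with 6.49 and 6.54 in head replicates 1 and 2 and 5.80 and 5.94 in replicates 3 and 4. Probe 13859 (row 65, column 99) was 9.66 ± 0.11 in abdomens, 8.73 ± 0.09 in male pupae, 6.25 ± 0.29 in female pupae and 6.30 ± 0.21 in heads (SD, n = 4 each).

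The splits within heads and female pupae coincided with the sample on the other channel of the array, and their cause was not tested. Head replicates 1 and 2 shared their arrays with abdomens, female replicates 2 and 4 with mixed-sex and male pupae, and embryo replicates 3 and 4 with mixed-sex and male pupae. The other 6 samples of these groups shared arrays among themselves. In heads, where each pair held 1 sample of each dye, the samples beside abdomens were higher by a member median of 0.16 log2 units, at 110 of 128 members, against 48.4% of all probes. In female pupae the difference was 0.18, at 113 members against 51.2% of all probes, and in embryos 0.04, at 79 members against 49.9%. In female pupae and embryos the split coincides with the dye, and dye and array partner cannot be told apart there. With 2 samples against 2, array partner and other differences between arrays cannot be told apart in heads either. Among high groups, abdomens beside mixed-sex or male pupae were higher than the other abdomens by 0.11, at 97 members against 52.4% of all probes. The like difference was 0.06 in mixed-sex pupae and 0.02 in male pupae. At the 57 probes with a further rise it was 0.48 in heads, 0.31 in female pupae, 0.03 in embryos and -0.01 in abdomens. Without the 6 head, female pupal and embryo samples beside male pupal, mixed-sex or abdomen RNA, 158 probes met the rule, and 126 of the 128 members were among them.

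Embryos were compared with the low groups to see whether the members stay low outside pupae and adults. Their mean lay within 0.5 log2 units of female pupae at 126 members and of heads at 122. These counts have no share of all probes beside them. The offset in the log2 values also makes low signals look closer together than they are, so the counts are given as a description. The median of embryos minus female pupae was -0.05 over the members and 0.01 over all probes. By limma, 2 members passed as higher in embryos, where 5.58% of all probes did, and 0 as higher in female pupae, where 4.5% did. At an unadjusted p under 0.05 in either direction there were 2 of 128 members and 4020 of 22575 probes. Against heads, 2 members passed as higher in embryos and 3 as higher in heads, where 9.68% and 8.27% of all probes did. The rule chose probes that were low in female pupae and heads, so only the embryo side of these differences is independent of it, and a p above the threshold does not show that the levels were equal. These contrasts were added after the data were seen.

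Of the 5 members that differed between embryos and heads, probes 2527 and 19563 were higher in embryos by 0.64 (SE 0.14, limma adjusted p = 0.00146) and 0.54 (SE 0.12, limma adjusted p = 0.00231). Probe 2527 (row 12, column 162) had 7.89, 7.68, 7.79 and 7.71 in embryos and 7.25, 7.15, 7.14 and 6.99 in heads. Its embryo samples all lay above its head samples. Probes 1858, 7058 and 18894 were higher in heads by 0.73 (SE 0.16), 0.57 (SE 0.14) and 0.70 (SE 0.13), with limma adjusted p = 0.00173, 0.00492 and 0.000315. These 5 members were named after their values were seen.

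Mixed-sex pupae were compared with embryos, the stage contrast of the series. All 128 members were brighter in mixed-sex pupae, by a median of 0.98 log2 units and a range of 0.16 to 2.32, while the median over all probes was -0.01. By limma, 124 members passed as higher in mixed-sex pupae, where 6.23% of all probes did, and 0 as higher in embryos, where 7.28% did. The 4 samples of each group did not overlap at 121 of the 126 members with complete values, against 8.1% of all probes. Mixed-sex pupae contain the male RNA by which the members were chosen, so a share above the background is built in and only the low embryo side is independent. On the 1 array that held both groups, mixed-sex replicate 2 was brighter than embryo replicate 3 at 127 of 128 members, by a median of 0.80, against 48% of all probes. Within Cy3 the median was 0.95 and within Cy5 it was 1.02, each from 2 samples a group, where the medians of all probes were -0.01 and 0.01.

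The largest of these differences were at probes already described. Probe 8465 was 2.32 higher in mixed-sex pupae (SE 0.17, limma adjusted p = 1.74e-09) and probe 13816 was 2.31 higher (SE 0.21, limma adjusted p = 7.51e-08). Probe 15544 was 2.25 higher (SE 0.22, limma adjusted p = 1.21e-07) and probe 13859 was 2.01 higher (SE 0.15, limma adjusted p = 1.74e-09). In all 4 the embryo mean lay between 6.05 and 6.43. The other end held members that were brighter in embryos: 6 members had an embryo mean above 7, led by probes 3366, 19563, 2527 and 514 with 9.94, 7.79, 7.77 and 7.28. Of these 4, all but probe 3366 passed the stage threshold, with differences of 0.63 to 0.70. Scaled to the 75th percentile these 3 did not pass, with limma adjusted p = 0.178 at probe 19563, 0.168 at probe 2527 and 0.332 at probe 514, and on the brighter arrays alone probes 19563 and 2527 did not pass.

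**Figure D4:**
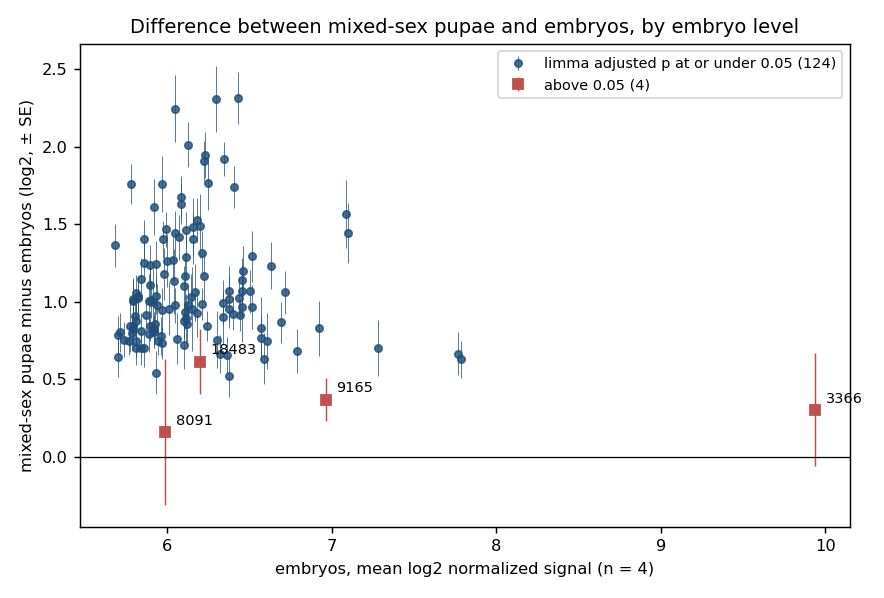
Mixed-sex pupae minus embryos (y axis, log2, ± SE) against the mean log2 signal in embryos (x axis, n = 4) for the 128 members; circles passed a limma adjusted p of 0.05 and squares did not. All points lie above 0, between 0.16 and 2.32, and the 4 that did not pass are probes 8091, 18483, 9165 and 3366.

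The 4 members just named did not pass the stage threshold, and their samples show different patterns. Probe 3366 (row 16, column 141) was among the brighter probes in all groups and least bright in female pupae, where its mean stood at percentile 97.0 of all probes. It had 9.34, 8.99, 10.88 and 10.54 in embryos and 10.37, 10.77, 9.92 and 10.92 in heads. It had 11.51, 10.96, 10.42 and 10.43 in male pupae, 12.43, 10.65, 11.48 and 11.82 in abdomens and 7.81, 8.91, 7.95 and 7.56 in female pupae. All female samples lay below all other samples, and heads and abdomens overlapped. Its embryos exceeded its female pupae by 1.88 (SE 0.36, limma adjusted p = 0.000981), and its mixed-sex pupae exceeded its embryos by 0.30 (SE 0.36, limma adjusted p = 0.755). The latter value ran from 0.06 without embryo replicate 2 to 0.54 without embryo replicate 3, and was -0.29 with the array as a fixed block. Its head level stood at percentile 99.7 of all probes, so its pattern was unlike that of the other members.

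Probe 8091 (row 38, column 136) owed its place to 1 array. It had 9.19 in male pupal replicate 1 and 6.55, 6.21 and 6.52 in the others. It had 8.65 in abdomen replicate 4 and 6.66, 6.55 and 6.51 in the others. These 2 high samples were the 2 channels of the same array, and without them the probe did not meet the rule. Mixed-sex pupae, which contain male RNA, had 6.14, 6.26, 6.17 and 6.05. The mixed-sex mean exceeded that of embryos by 0.16 (SE 0.47, limma adjusted p = 0.928). Without these 2 samples 100 probes met the rule, 98 of them among the 128 members.

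Probe 18483 (row 86, column 208) had 7.17 in embryo replicate 1 and 5.89, 5.88 and 5.86 in the other embryos. Mixed-sex pupae were higher by 0.62 (SE 0.21, limma adjusted p = 0.0538), and without embryo replicate 1 by 0.95 (limma adjusted p = 4.69e-05). Probe 9165 (row 43, column 135) had 6.76, 6.79, 7.19 and 7.12 in embryos, between female pupae at 6.45 ± 0.17 and mixed-sex pupae at 7.33 ± 0.18 (SD, n = 4 each). With probe 3366 it was 1 of 2 members higher in embryos than in female pupae, by 0.52 (SE 0.14, limma adjusted p = 0.0158).

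**Figure D5:**
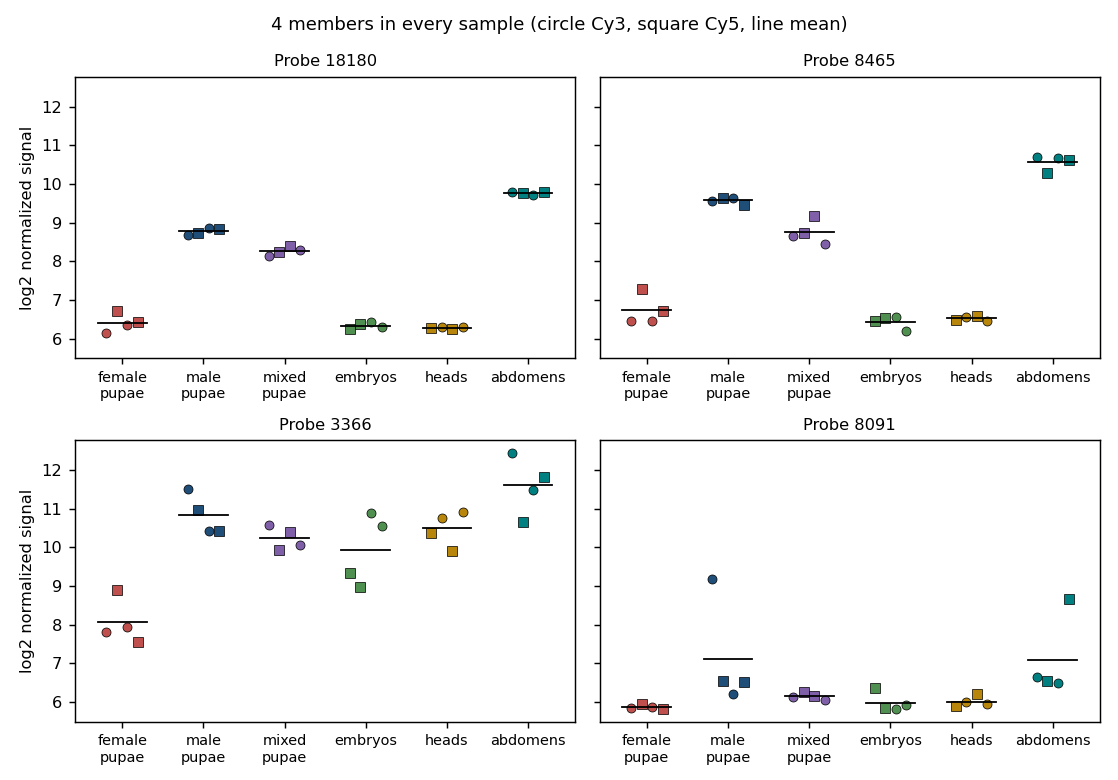
Log2 normalized signal (y axis) of probes 18180, 8465, 3366 and 8091 in the 4 samples of each group (x axis; circle, Cy3; square, Cy5; line, group mean). Probes 18180 and 8465 are high in male pupae, mixed-sex pupae and abdomens; probe 3366 is lower in female pupae, with a mean of 8.06, than in the other groups; probe 8091 is high in 1 male pupal and 1 abdomen sample, at 9.19 and 8.65.

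Mixed-sex pupae lay between the sexes at all 128 members, in the order female, mixed, male, abdomen at 127 of them. The male share of the mixed-sex signal was read on the linear scale, as the position between the female mean at 0 and the male mean at 1. An equal mixture would give 0.5. The member median was 0.494, 0.478, 0.768 and 0.722 in mixed-sex replicates 1 to 4, with a mean of 0.615 ± 0.151 (SD, n = 4). Replicates 1 and 2 were close to an equal mixture, and replicates 3 and 4 were closer to males. Replicate 3 shared its array with abdomen replicate 1, and replicate 4 with female replicate 2. Replicates 1 and 2 lay on brighter arrays, with a mean net signal of 95.6 and 94.1 units, and replicates 3 and 4 on dimmer ones, with 44.0 and 37.2; the part of brightness or array partner in the share was not tested. The male and female means also chose the members, and the share was not tested against 0.5.

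Set against the mean of the log2 levels of both sexes, mixed-sex pupae passed the limma threshold as higher at 1 member, probe 18180, with 0.67 (SE 0.09, limma adjusted p = 0.0118). This is 0.781% of the members, where 0.00443% of all probes passed, and no other probe did. At an unadjusted p under 0.05 there were 87 members and 601 probes in all. Wherever the sexes differ, an equal mixture has a higher log2 signal than the mean of both logs, so a rise is built in. Above an equal mixture on the linear scale, the median excess was 0.15 log2 units. Without mixed-sex replicates 3 and 4, 0 members passed and the mean male share was 0.486. The 3 members with larger departures were less precise, with 0.88 (SE 0.19, limma adjusted p = 0.28) at probe 15544, 0.79 at probe 3366 and 0.75 at probe 13816, and none of the 3 passed.

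As a description, the rule was applied without 1 replicate number of every group and the left-out samples were then compared. Without replicates 1, 2, 3 and 4 in turn, 102, 147, 124 and 163 probes met the rule, of which 98, 116, 115 and 125 were among the 128 members. In the left-out samples the median male minus female difference of these probes was 1.66, 1.00, 1.32 and 1.07. It was above 0 at 101 of 102, 146 of 147, 123 of 124 and 161 of 163 probes. The median abdomen minus head difference was 2.04, 1.62, 2.04 and 2.07. All 3 limits were met by 82, 59, 97 and 60 of the probes in the left-out samples alone, while 1.2%, 0.416%, 0.719% and 0.347% of all probes met them there. A male minus female difference of at least 1 was met there by 99, 73, 105 and 92 of the probes. Of all probes, 1.66%, 1.23%, 1.37% and 1.02% met it. Both differences were above 0 in the left-out samples at nearly all chosen probes, and the exact limits were met at fewer. The share of all probes above 0 was not computed. Normalization used all 24 samples, and some left-out samples shared an array with samples that chose the probes, as male pupal replicate 1 did with abdomen replicate 4. The left-out samples were thus not independent of the choice, and no support for it is drawn from them.

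Differences within single arrays and dyes are given as a description, since they reuse the samples that chose the members and their sign was largely fixed by the rule. On the array of male replicate 3 and female replicate 4, the male channel was brighter at 127 of 127 measured members, by a median of 1.32, against 39.3% of all probes. On the array of abdomen replicate 3 and head replicate 1, abdomens were brighter at 128 of 128 members, by 1.90, against 45.7% of all probes. On that of abdomen replicate 2 and head replicate 2 they were brighter at 126 of 127, by 1.68, against 46.3%. Within dyes, male minus female pupae had a median of 1.50 in Cy3 and 1.06 in Cy5, and the limit of 1 was met at 126 members in Cy3 and 80 in Cy5. Abdomen minus head had 1.95 and 1.83.

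The dye effect itself was not part of the rule, since each group held both dyes equally. By limma, 1 member passed, probe 15080 (row 71, column 30), with Cy5 lower than Cy3 by 0.19 (change -0.19, SE 0.06, limma adjusted p = 0.0488). This fit does not hold the 2 samples of an array together, although their consensus correlation was 0.489, and with the array as a random or fixed block 19 and 22 members passed in either direction. The share of all probes that passed with a block was not computed, so the counts of 19 and 22 have no background beside them. In the fit without a block, 3.57% of all probes passed as Cy3-higher and 3.54% as Cy5-higher. In that same fit, 8 of the 57 probes with a further rise passed as Cy5-higher, and among the 128 members 0 did. The difference between these sets was not tested.

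The members did not cluster on the array. Rows 1 to 35, 36 to 70 and 71 to 105 held 47, 46 and 35 of them, and 4 of the 128 touched another member. Across the members, the group means of embryos and female pupae had a Pearson correlation of 0.924 and those of embryos and heads 0.934 (n = 128 probes, which share samples and normalization). Over all probes the same values were 0.864 and 0.803. Probe 3366, at 9.94 in embryos and 10.49 in heads, lay far from the other members, and correlations without it were not computed. These correlations are therefore not read as a trait of the members. The difference between the sexes and that between the tissues correlated at 0.79 across the members and at 0.539 over all probes. Both differences chose the members, so the value of 0.79 is given as a description. The median profile over the 6 groups correlated with single members at 0.995 in the median and at 0.731 at the lowest.

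Outside the members, the probes most like the median profile over the 6 group means were probes 5921, 11076, 10262 and 17362, each with a Pearson correlation of 0.999 to 1.00 (n = 6 groups). Probe 5921 had 6.74 in male pupae, 5.86 in female pupae, 7.14 in abdomens and 5.86 in heads. Its difference between the sexes was 0.88, under the limit. Probe 10262 missed the limit with 0.98. In all, 719 probes outside the members had a correlation over 0.95.

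Values of the probes on either side of the rule are set beside those of the members as a description. In embryos, whose level the rule did not use, the median was 6.07 ± 0.06 for the members and 6.32 ± 0.07 for the 57 probes with a further rise. It was 6.46 ± 0.06 for the 24 that met the limit between the sexes but not that between the tissues (SD of sample medians, n = 4 each). Mixed-sex pupae passed as higher than embryos at all 57 of the first set and at 12 of the 24 in the second, where 2 passed as lower. The mixed-sex side of that contrast is not independent of the rule, and differences between the sets were not tested.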

How the data were processed

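Scanner tables of 24 samples and a table of values per sample were used. The deposited scanner tables hold, per the file headers, mean and median signal intensity and local background intensity of 1 channel for each of 22575 spots, neither background-corrected nor normalized, and a quality mark of unstated meaning. The table of values that the authors deposited holds the natural log of each spot's net signal (mean signal less mean background, a match within 8e-08), unscaled and empty where that difference was 0 or below. It was used as an alternative. The sources used here do not give the scanner software or its settings.

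In R 4.3.3 with limma 3.58.1, mean signal was corrected for median background (normexp, offset of 50), spots with a quality mark above 0 were dropped, and log2 values were quantile normalized over all samples. Marked spots occurred at 1338 probes, 3 of them members. Samples with identical marks were taken as 1 array. One linear model per probe had 6 group means and a dye term (17 residual degrees of freedom, eBayes with trend). It did not hold the 2 samples of an array together, although their consensus correlation was 0.489. Every limma p-value comes from this model unless another setting is named. The contrasts of embryos with female pupae and with heads are given without an array block only. Benjamini-Hochberg adjustment ran over all 22575 probes, called at 0.05. In simulated stage data for 22575 probes, 55.0% of changes of 0.5 log2 units and 93.0% of changes of 1 were recovered. No filter on low values was used, so all 128 members were tested.

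The members, lists and comparisons were chosen with earlier results of these data known. Named probes are those with extreme values of each difference, embryo level, dye effect or mixed-sex departure, those next to a limit, and those most like the median profile; exceptions are stated. Marker gene lists planned from the labels could not be applied.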

Additional observations from a re-analysis of the deposited data

Results flagged for a closer look

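In 120 groups of 4 samples, those of the 19 named members and of the member median, 9 had a sample far from the other 3, which is 7.5%. Chance gives about 5% in independent groups. These members were named for extreme or limit values and share the same 24 samples, so the 2 shares cannot be weighed against each other. At probe 8091, male pupal replicate 1 stood at 9.189 (log2 signal), where the remaining male pupae had 6.21 to 6.55, and abdomen replicate 4 had 8.654, against 6.51 to 6.66. These 2 samples are the channels of 1 array. At the same probe embryo replicate 1 had 6.379, against 5.83 to 5.92. Embryo replicate 1 also stood apart at probe 18483, with 7.173 against 5.86 to 5.89, and at probe 9119, with 5.730 against 5.67. At probe 9165, female replicate 2 had 6.704, against 6.33 to 6.39. Male pupal replicate 2 was low at probe 13859, with 8.605 against 8.77 to 8.78, and at probe 21785, with 9.051 against 9.46 to 9.50. At probe 11252, abdomen replicate 1 had 8.821, against 8.55 to 8.58. The causes were not tested.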

How the results depend on the processing

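The number of probes that met the rule, 128, was set by its limits and by the offset. It was 394 with an offset of 10, 346 with plain background subtraction and 362 with the deposited natural log values, of which 88, 93 and 92 were among the 128; the offset shrinks differences at dim probes. With the limit between the sexes at 0.75 or 1.25 it was 244 or 67, and with the limit between abdomen and male pupae at 0.75 it was 76. Leaving out 1 sample at a time gave 96 (without male pupal replicate 1) to 157. Of the 128 members, 86 met the rule without each of the 16 samples it uses.

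The stage count of 124 members ran from 122 to 125 with 1 sample left out. It was 119 on the dimmer and 108 on the brighter arrays alone, and 126 with a brightness term. It was 123 without the 6 low samples beside male pupal or abdomen RNA, and 118 without mixed-sex replicates 3 and 4. These 5 settings were added after the data were seen. For the changed settings in this section the share of all probes that passed was not computed, so the counts have no background beside them. The counts by sex ran from 126 to 127 and by tissue from 126 to 128. The count of members brighter in abdomens than in male pupae ran from 92 to 104 and was 54 with the 75th percentile scaling. That scaling moved the median of all probes from -0.02 to 0.11. The member median was 0.68 with and without it, and 127 members were above 0 with it. Why fewer members passed was not tested. That scaling moved the all-probe median to -0.17 between the sexes, -0.22 between the tissues, -0.20 between embryos and heads and 0.24 between the dyes, and all 128 members remained above 0 by sex, tissue and stage.

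The single dye call ran from 0 to 3. It became 8 with the 75th percentile scaling, 19 and 22 with the array as a random or fixed block, 6 with the brightness term, and 0 with the mean background, marked spots kept, the replicate block, an adjusted p of 0.01, and without the 6 low samples or mixed-sex replicates 3 and 4. The single call of mixed-sex pupae against the mean of the sexes ran from 0 to 1, ended by leaving out mixed-sex replicate 2, 3 or 4. It was 0 with the 75th percentile scaling, the groups of the comparison alone, the array as a fixed block, an adjusted p of 0.01 and without mixed-sex replicates 3 and 4, 6 with an offset of 10 and 8 with the array as a random block. The embryo median of 6.07 ran from 6.03 to 6.11, and was 4.69 with an offset of 10, 4.88 with plain subtraction and 4.84 with the deposited values, whose scales carry a smaller offset or none. The mean male share ran from 0.563 to 0.678. The causes of the other changes were not tested.

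Deviations of same-numbered samples correlated at -0.379 to -0.0578 between mixed-sex pupae and embryos, and at -0.321 to 0.0019 between abdomens and heads. For replicates 1 to 4 of male and female pupae they correlated at 0.823, 0.223, -0.159 and 0.486. No comparison had every pair over 0.1, so replicate numbers were not taken to pair the samples. Whether they pair male with female pupae could not be told from these values. With the replicate block the dye count was 0, the stage count 125 and the count of abdomens above male pupae 99, and no count but that of the dye moved by over 1.5 times. Among single members the stage call of probe 18483 was gained under 11 of the settings and that of probe 9165 under 4. Stage calls of probes 19563, 2527, 514 and 5470 were lost with the 75th percentile scaling (limma adjusted p = 0.178, 0.168, 0.332 and 0.134), those of 11252, 19563, 2527 and 5470 on the brighter arrays alone (0.0613, 0.107, 0.0796 and 0.178), and that of 2527 on the dimmer arrays alone (0.0552). No called difference reversed; the uncalled stage difference of probe 3366 was -0.29 with the array as a fixed block and -0.39 on the brighter arrays alone. Low signal limits the order of the members in female pupae, embryos and heads.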

Other observations

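The 24 probes that met the limit between the sexes but not that between the tissues ranked the samples differently from the members. Their median log2 signal was 7.17, 8.55, 7.73 and 7.96 in male pupae replicates 1 to 4, while the members had their highest value in replicate 1. Their median male share in mixed-sex pupae was 0.606, 0.365, 0.301 and 0.0926, so replicates 3 and 4, which lay nearest to males at the members, lay nearest to females here. In the 57 probes with a further rise the shares were 0.467, 0.481, 0.833 and 0.602. All 3 sets were chosen on these pupal values, and the difference was not tested.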
